A study of Homo sapiens with 6 samples.

Results

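Ribosome biogenesis factors are the proteins that make and assemble ribosomes without being part of the finished particle. For them, 55 human genes were chosen by name and role, with earlier results of these data known. Of these 55, 54 had a row among the 19330 transcripts of the footprint table, and UTP15 was not analysed here. The 54 genes fell into 6 groups by role, with 7 for nucleolar organisation and RNA polymerase I, 3 for box C/D and 4 for box H/ACA small nucleolar ribonucleoproteins (snoRNPs), 15 of the small subunit (SSU) processome, 7 of late small subunit precursors and 18 of large subunit precursors. Their ribosome footprints were measured by ribosome profiling (Ribo-Seq), which sequences the pieces of mRNA that a ribosome protects from nuclease, in K562 cells, a human chronic myelogenous leukemia line. Cells were infected with a lentiviral CRISPR/Cas9 vector, pLentiCRISPRv2, that carried a guide against N6AMT1 (sgN6AMT1, 3 libraries) or control guides against the olfactory receptor genes OR11A1 and OR2M49 as the labels spell them (sgCtrl, 3 libraries). All cells had received Cas9, a guide and 48 h of puromycin and were collected on day 10 after infection. No clones were described, so each library stood for a pool of edited cells, and which control guide each sgCtrl library carried is not stated. N6AMT1 is a methyltransferase that acts with TRMT112 and modifies the translation termination factor eRF1, and the comparison asked how its depletion altered ribosome occupancy on these 54 genes.

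Ribosome assembly starts in the nucleolus, where RNA polymerase I transcribes a long rRNA precursor. Box C/D and box H/ACA snoRNPs guide its methylation and pseudouridylation, and the SSU processome folds and cleaves the part that becomes the small subunit. Helicases, GTPases and scaffold proteins then remodel both precursors on their way to the cytoplasm, and proliferating leukemia cells such as K562 depend on this supply of ribosomes.

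The libraries held between 1821356 and 2969736 counts. The targeted gene, N6AMT1, fitted the labels, with raw counts of 25, 24 and 34 in the control libraries and of 10, 9 and 8 in the depleted ones (log2 fold change -1.51, SE 0.31, edgeR adjusted p 6.69e-05). These few counts belong to a transcript that the GENCODE annotation classes under nonsense-mediated decay and not as protein-coding. TRMT112, the partner of N6AMT1, rose (log2 fold change 0.38, SE 0.067, edgeR adjusted p 3.58e-06). Of 9 erythroid markers of K562, all were detected, with a summed level of 25431 to 26898 CPM (counts scaled to the library size after trimmed-mean, TMM, normalization) in sgCtrl and 26331 to 27181 in sgN6AMT1. Of these, KLF1, GATA1 and HBZ were lower and TAL1, HBE1 and ALAS2 higher in sgN6AMT1 past the threshold. The part of this shift between erythroid genes in the results below was not tested. Of 6 markers of other cell types, the summed level was 38.2 to 49.0 CPM in sgCtrl and 39.0 to 43.6 in sgN6AMT1, most of it from CD3D, and MS4A1 was at 0 in every library. Libraries within a group lay closer together (chi-square per degree of freedom 1.25 to 1.68) than libraries across groups (4.89 to 7.04).

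Ribosome biogenesis factors carried fewer footprints upon N6AMT1 depletion. In the quasi-likelihood test of edgeR, with Benjamini-Hochberg adjustment across all 9202 genes tested (threshold 0.05), 28 of the 54 genes passed, 27 of them lower and 1, NHP2, higher, against a background of 26.9% of all genes (13.9% lower and 12.9% higher). All 54 had passed the filter on low counts. At an unadjusted edgeR p under 0.05 there were 33, and the share of all genes at that p was not computed. The log2 fold changes of sgN6AMT1 over sgCtrl ran from -0.57 for UTP20 to 0.33 for NHP2 with a median of -0.17, where the median of all genes tested was 0.006, and 48 of the 54 were below 0 (43 when scaled by total counts alone). The changes were small: UTP20 was the only one of the 54 whose log2 value moved by 0.5 or more. These genes were well covered, and abundant genes pass a test more readily. Among the 3128 genes with at least the CPM of the lowest of the 54 (61.5 CPM in sgCtrl), 41.4% passed, 28.0% lower and 13.4% higher, with a median of -0.07. Log2 fold changes were below 0 in 61.4% of these 3128 genes and in 49.0% of all genes tested.

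**Figure D1:**
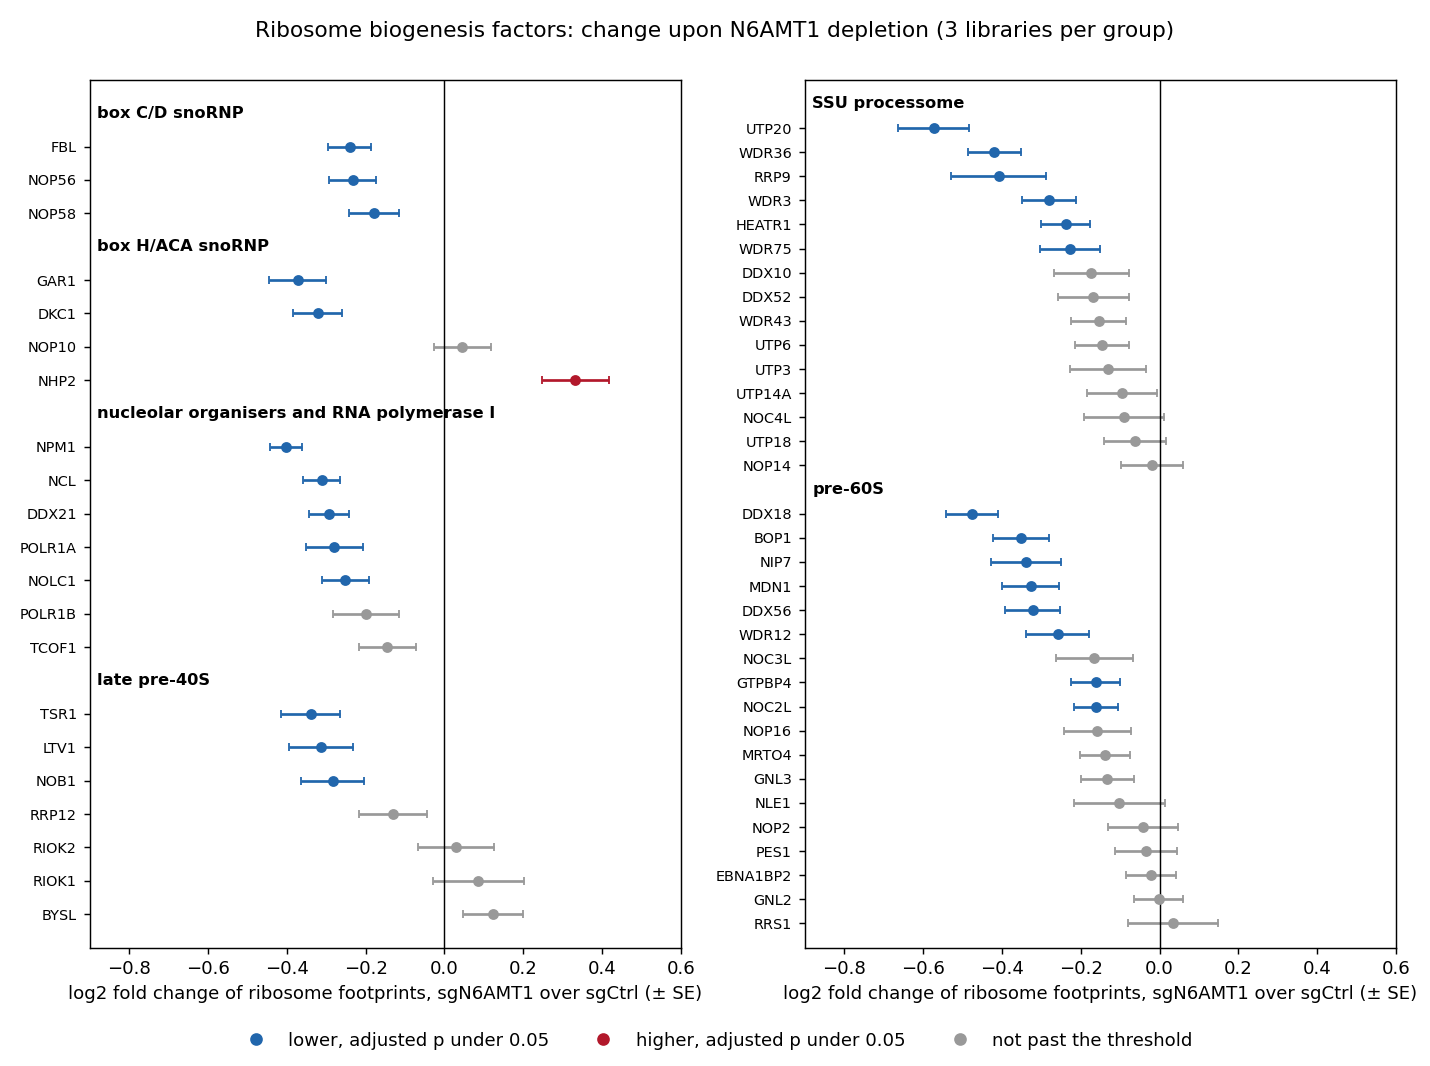
Log2 fold change of ribosome footprints (sgN6AMT1 over sgCtrl, x axis) for each of the 54 ribosome biogenesis factors by role, with bars for ± SE from edgeR and 3 libraries per group. Blue genes were lower (27), the red gene NHP2 was higher and grey genes did not pass the threshold (26).

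The groups did not overlap for 31 of the 54 genes, 29 with all sgN6AMT1 libraries lower and 2 with all higher (NHP2 and BYSL). No overlap was also found for 37.5% of all genes tested and for 49.8% of the 3128 genes with at least the CPM of the lowest of the 54. Of the 28 genes that passed, 26 had no overlap, and the exceptions were RRP9 and MDN1. Conversely, DDX10, WDR43, BYSL, POLR1B and MRTO4 had no overlap and did not pass. The shift was seen in each library, with 49, 48 and 40 of the 54 genes under their own sgCtrl mean in sgN6AMT1 replicates 1, 2 and 3, and 24, 21 and 37 in sgCtrl replicates 1, 2 and 3. The share of all genes by this count was not computed. By this count sgCtrl replicate 3 came near sgN6AMT1 replicate 3, but the median log2 ratio of the 54 genes to their sgCtrl mean was -0.03 in the former and -0.19 in the latter. Replicates spread little, with a median coefficient of variation of 5.25% in sgCtrl and 5.32% in sgN6AMT1. It was widest for MDN1 in sgCtrl (15.2%) and RRP9 in sgN6AMT1 (18.5%).

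**Figure D2:**
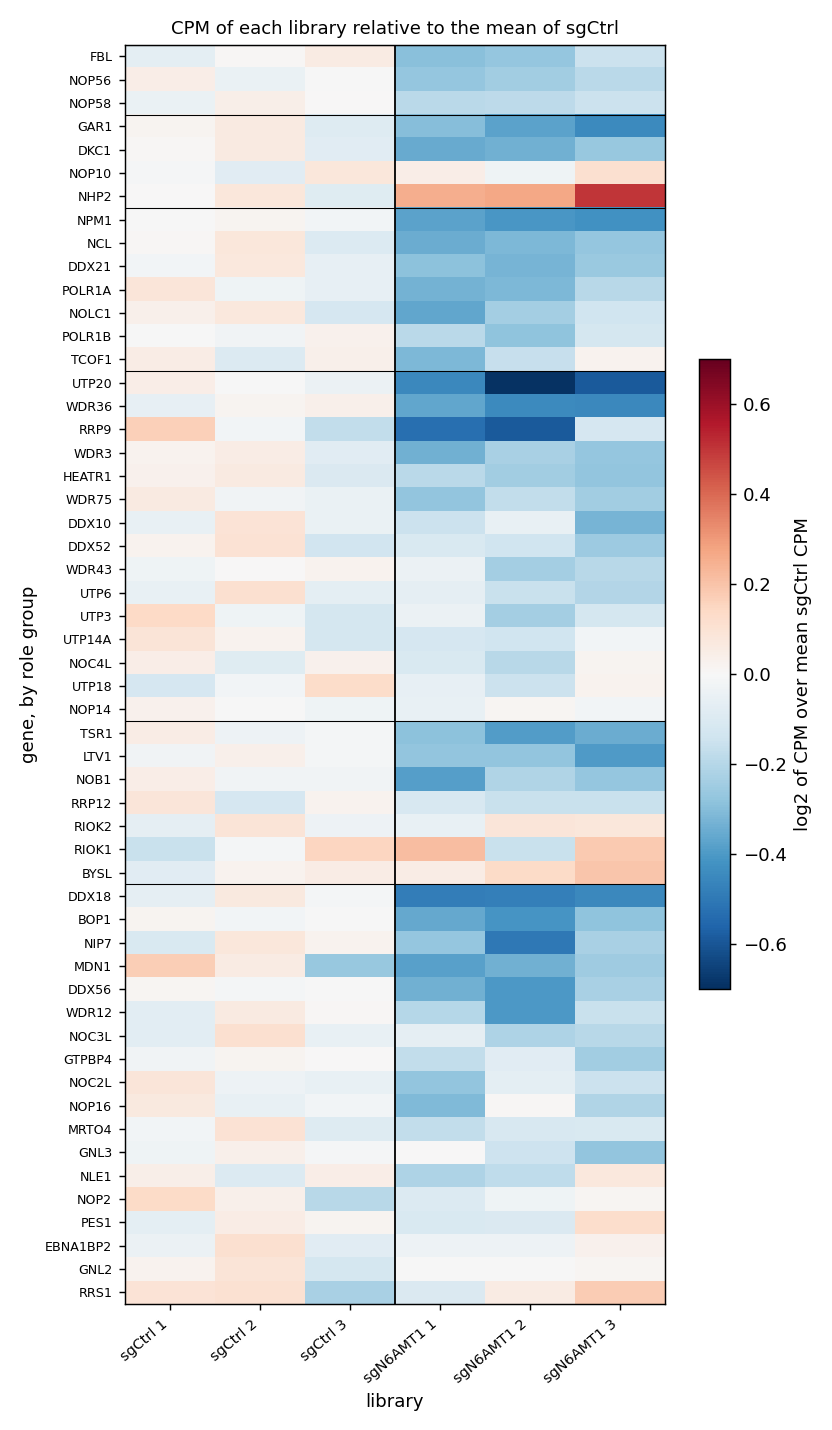
Log2 of the CPM of each library over the mean CPM of sgCtrl (color, blue lower and red higher) for the 54 genes (rows, by role group) in the 3 sgCtrl and 3 sgN6AMT1 libraries (columns). Blue dominates the sgN6AMT1 columns, where 49, 48 and 40 of 54 genes were under the sgCtrl mean, and NHP2 stands out in red.

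As 1 pool, the 54 genes held 1.58% ± 0.039 of the footprints of a control library and 1.38% ± 0.015 of those of an sgN6AMT1 library (SD, n = 3 each), which was 87.1% of the control share. No sgN6AMT1 library reached the lowest sgCtrl library. NPM1 alone held 0.379% ± 0.0053 in sgCtrl and 0.298% ± 0.0054 in sgN6AMT1 (SD, n = 3). Without NPM1 and NCL, the shares were 1.07% ± 0.026 in sgCtrl and 0.966% ± 0.017 in sgN6AMT1 (SD, n = 3), so the pool of the other 52 genes was also below the control. A footprint count rises with mRNA abundance as well as with translation, and RNA sequencing was not used here. In these bulk samples, fewer cells of a type and less RNA per cell cannot be told apart.

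**Figure D3:**
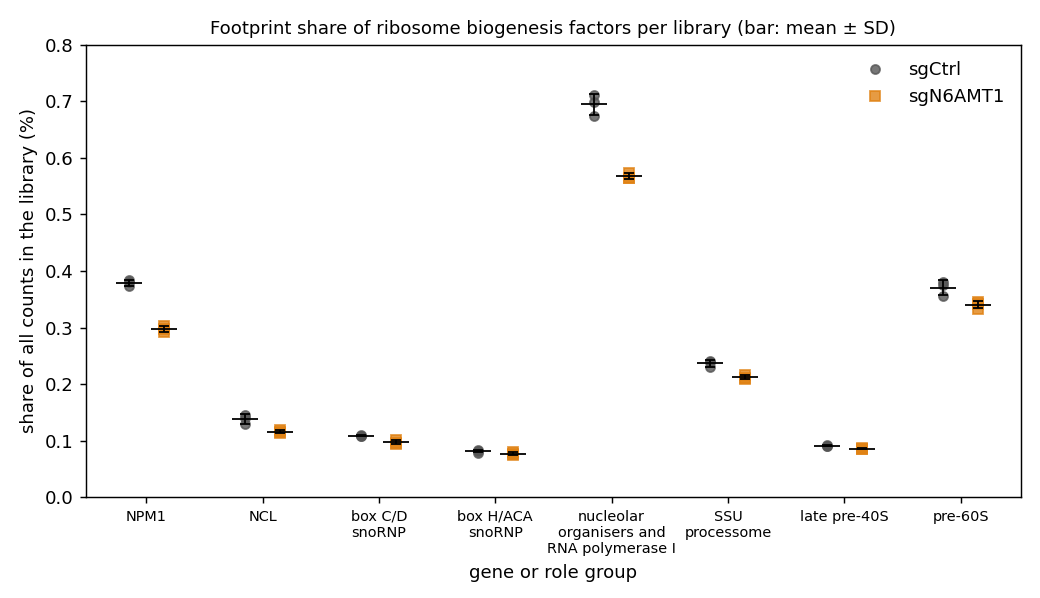
Share of all counts in a library (y axis, %) for NPM1, NCL and the 6 role groups, with 1 point per library and bars for mean ± SD (n = 3 per group). The group of nucleolar organisers and RNA polymerase I, which holds NPM1 and NCL, went from 0.694% in sgCtrl to 0.567% in sgN6AMT1.

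Promoter sequence was one property that the choice of genes had not used. RefSeq promoters (GRCh38.p14, 250 bases before to 50 bases after the first transcribed base) matched 46 of the 54 genes, and 4 motifs were searched on both strands: CACGTG (the E-box), the NRF1 motif (10 bases), CCAAT (read as ATTGG on the other strand) and CGGAAG (the core of ETS sites, CTTCCG on the other strand). The E-box and the NRF1 motif are palindromes, and no motif contains another. Where the table lists several windows for a gene, only the first was searched. The E-box was found in 18 of 46 promoters (39.1%), against 11.0% of the 7185 promoters of genes tested and 7.43% of all 27305. Among the genes that were lower, 5 of 23 promoters (21.7%) held it, and among the others 13 of 23 (56.5%). For the remaining motifs, the share was 56.5% against 38.0% of genes tested for CGGAAG, 37.0% against 38.2% for CCAAT and 8.70% against 2.62% for the NRF1 motif. A match says only that the letters are there. The 5 lower genes with an E-box are shown, 1 window each with the motif in capitals, because they include UTP20, the gene with the largest decrease, and range over 4 of the roles. Their windows lie at chr12:101280083-101280112 (+), chr3:51941892-51941921 (-), chr19:39846356-39846385 (-), chr6:143843354-143843383 (+) and chr6:89819932-89819961 (-), in the order below, with the motif starting -10, -5, 6, 28 and -155 bases from the first transcribed base.
UTP20: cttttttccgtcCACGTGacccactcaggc
RRP9: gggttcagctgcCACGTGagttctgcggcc
FBL: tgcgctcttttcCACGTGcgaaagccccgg
LTV1: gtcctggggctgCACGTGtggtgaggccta
MDN1: tttctgtcccacCACGTGctgtgttcgcga

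Nucleolar organisers and RNA polymerase I subunits were mostly lower. All 7 had negative log2 fold changes (median -0.28), and 5 passed the test. NPM1 (nucleophosmin), the abundant nucleolar protein that holds the outer layer of the nucleolus together and lies at chr5:171387849-171410900 (GENCODE, GRCh38), stood at 3875, 3933 and 3830.1 CPM in the sgCtrl libraries and 2993, 2921 and 2895 CPM in the sgN6AMT1 libraries. Every sgN6AMT1 value was far under every sgCtrl value, and NPM1 fell by 24.3% (log2 fold change -0.40, SE 0.041, edgeR adjusted p 4.43e-14). Per kilobase of coding sequence (CDS), NPM1 was also the most occupied of the genes with a matched CDS (4398 ± 58.5 CPM per kb in sgCtrl, SD, n = 3). NCL (nucleolin), an RNA-binding protein of the same compartment, had 1425, 1497 and 1327 CPM in sgCtrl and 1113, 1141 and 1175 CPM in sgN6AMT1. The groups were again apart, and NCL fell by 19.4% (log2 fold change -0.31, SE 0.047, edgeR adjusted p 6.01e-08). DDX21, a helicase that works at ribosomal genes and on rRNA, was also lower (log2 fold change -0.29, SE 0.050, edgeR adjusted p 1.36e-06). So were POLR1A, the largest catalytic subunit of RNA polymerase I (log2 fold change -0.28, adjusted p 0.00154), and NOLC1, a chaperone of snoRNPs (-0.25, adjusted p 0.000572, edgeR). TCOF1 (treacle), which organises ribosomal gene transcription, had the smallest difference of the 7, from 217, 195 and 214 CPM to 168, 187 and 212 CPM. Its sgN6AMT1 replicate 3 lay within the sgCtrl range, and it did not pass (log2 fold change -0.15, SE 0.072, edgeR adjusted p 0.130), although without that library it did. POLR1B, the other large catalytic subunit, did not overlap between groups (137, 135 and 140.0 CPM against 121, 113 and 126 CPM) and missed the threshold too (log2 fold change -0.20, SE 0.083, edgeR adjusted p 0.0648), again unless sgN6AMT1 replicate 3 was left out.

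All 3 core proteins of box C/D snoRNPs, which place methyl groups on rRNA, were lower, each without overlap. FBL (fibrillarin), the methyltransferase itself, stood at 477, 503 and 519 CPM in sgCtrl and 408, 413 and 450.0 CPM in sgN6AMT1 (log2 fold change -0.24, SE 0.056, edgeR adjusted p 0.000380). NOP56, a scaffold protein of the particle, stood at 367, 343 and 353 CPM and 294, 299 and 311 CPM (log2 fold change -0.23, SE 0.060, edgeR adjusted p 0.00142), and was the more occupied of the 2 scaffolds per kilobase (199 ± 6.65 CPM per kb in sgCtrl, against 165 ± 5.02 for NOP58, SD, n = 3). NOP58, its partner, had 254, 269.6 and 262 CPM and 229.7, 230.3 and 236 CPM (log2 fold change -0.18, SE 0.064, edgeR adjusted p 0.0284). Their log2 fold changes lay within -0.24 to -0.18, and the ratios of NOP56 counts to NOP58 counts and to FBL counts overlapped between the groups. The call for NOP58 was the least stable of these, since it was lost in 9 of 16 alternatives, DESeq2 among them, with its sign kept in all 16.

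The box H/ACA proteins, which carry out pseudouridylation and also belong to the telomerase particle, did not move together. DKC1 (dyskerin), the pseudouridine synthase, stood at 335, 347 and 315 CPM in sgCtrl and 260.4, 264 and 277 CPM in sgN6AMT1. GAR1, which binds DKC1, stood at 207, 214 and 192 CPM and 166, 158 and 150.4 CPM. Both were lower in every sgN6AMT1 library than in any sgCtrl library, and DKC1 fell by 20.0% (log2 fold change -0.32, SE 0.061, edgeR adjusted p 1.59e-05). GAR1 fell by 22.8% (log2 fold change -0.37, SE 0.072, edgeR adjusted p 2.17e-05). NOP10, the smallest of the 4 and the most occupied per kilobase (956 ± 53.5 CPM per kb in sgCtrl, SD, n = 3), had 183, 174 and 194 CPM and 189.8, 179.7 and 198 CPM, with overlapping groups (log2 fold change 0.05, SE 0.072, edgeR adjusted p 0.692). NHP2, an RNA-binding protein of the same core, lies at chr5:178149463-178153885 and had 116, 122 and 109 CPM in sgCtrl and 138, 140.0 and 164 CPM in sgN6AMT1. All 3 sgN6AMT1 libraries were above all sgCtrl libraries, replicate 3 most, and NHP2 was the only gene of the 54 that rose (log2 fold change 0.33, SE 0.084, edgeR adjusted p 0.00125). It stayed higher in all 16 alternatives, with the smallest value, 0.21 (edgeR adjusted p 0.0319), when trends on CDS length and GC content were removed.

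Footprint counts on the mRNAs of this particle can be compared as ratios inside each library, where the library size factor cancels. Such ratios do not measure the proteins in the particle, and trends on CDS length and GC content remain in them. With these trends removed, the log2 fold changes were 0.21 for NHP2, -0.075 for NOP10, -0.35 for DKC1 and -0.46 for GAR1. The ratio of NHP2 counts to DKC1 counts was 0.347, 0.353 and 0.347 in sgCtrl and 0.530, 0.531 and 0.592 in sgN6AMT1. The ratio of NHP2 to GAR1 was 0.567 ± 0.0069 in sgCtrl and 0.936 ± 0.14 in sgN6AMT1 (SD, n = 3), without overlap. NOP10 over DKC1 was 0.555 ± 0.058 and 0.709 ± 0.024 (SD, n = 3), again without overlap, whereas GAR1 over DKC1 overlapped (0.615 ± 0.0049 against 0.593 ± 0.048, SD, n = 3). These ratios were chosen after the values had been seen and were not tested. Of the promoters of this particle, that of DKC1 held the NRF1 motif and none of the other 3 motifs, the first listed window of GAR1 held CGGAAG alone, and that of NHP2 held CCAAT alone, at 2 places. The promoter of NOP10 held the E-box at 2 places, CCAAT and CGGAAG. A window is shown for 3 of these genes, with 1 motif in capitals. The capitals are the ETS core for GAR1 (as CTTCCG) at chr4:109815470-109815499 (+), the E-box for NOP10 at chr15:34343130-34343159 (-) and the CCAAT box for NHP2 (as ATTGG) at chr5:178153913-178153942 (-), all read on the strand of the gene.
GAR1: attgccgcagcaCTTCCGggacgtcgtgct
NOP10: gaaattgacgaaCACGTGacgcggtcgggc
NHP2: cttcctttcctgATTGGccgtgttgtacgg

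**Figure D4:**
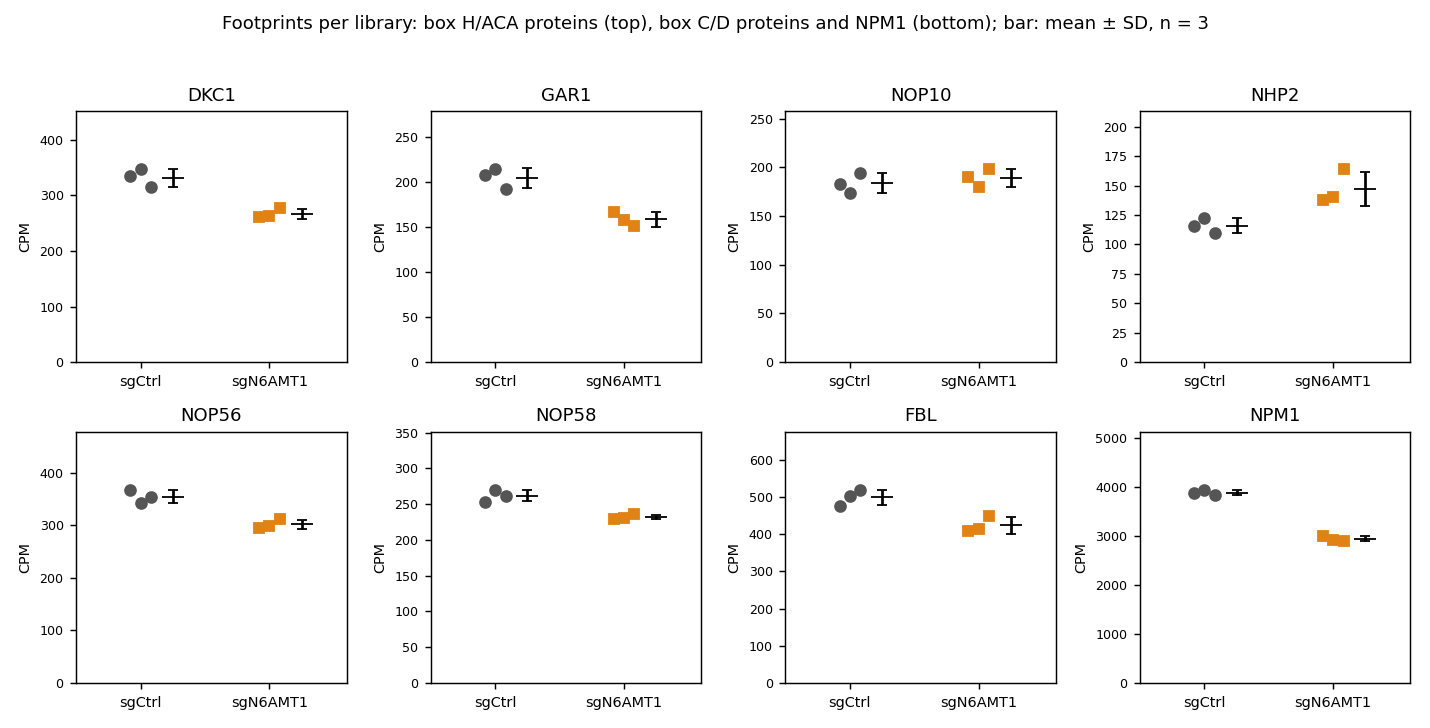
CPM (y axis, from 0) of the 4 box H/ACA proteins (top), the 3 box C/D proteins and NPM1 (bottom) in each sgCtrl and sgN6AMT1 library (points), with mean ± SD (bars, n = 3 per group). NHP2 is higher in all 3 sgN6AMT1 libraries, NOP10 overlaps, and the other 6 are lower without overlap.

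In the SSU processome, the large assembly on the nascent precursor of the small subunit, all 15 genes had negative log2 fold changes (median -0.17), except that NOP14 was at 0.04 when scaled by total counts alone, and 6 were lower. UTP20, a very large scaffold protein at chr12:101280105-101386618 whose promoter holds the first E-box shown, had 133, 129 and 125 CPM in sgCtrl and 94.2, 79.9 and 85.8 CPM in sgN6AMT1. All 3 sgN6AMT1 libraries lay below the control range, and UTP20 fell by 32.8%, the largest change of the 54 genes (log2 fold change -0.57, SE 0.091, edgeR adjusted p 2.44e-07). Within the UTP-B subcomplex, WDR36 had 231, 242 and 246 CPM and 186, 176 and 175 CPM and was lower (log2 fold change -0.42, SE 0.068, edgeR adjusted p 4.47e-07). WDR3 had 231, 235 and 215 CPM and 180.1, 194 and 188 CPM and was lower too (log2 fold change -0.28, SE 0.068, edgeR adjusted p 0.000831), both without overlap. The other UTP-B proteins among the 54 were UTP6, the most occupied per kilobase of the 13 processome genes with a matched CDS (127 ± 9.07 CPM per kb in sgCtrl, SD, n = 3), and UTP18. UTP6 had 219, 245 and 216 CPM and 217, 203 and 197 CPM, where the groups overlapped (log2 fold change -0.15, SE 0.068, edgeR adjusted p 0.106), and the log2 fold change of UTP18 was -0.06. Of the UTP-A subcomplex, which links the processome to transcription, HEATR1 (log2 fold change -0.24, adjusted p 0.00151, edgeR) and WDR75 (-0.23, adjusted p 0.0169, edgeR) were lower. The value of HEATR1 shrank to -0.15 with length and GC trends removed and still passed (edgeR adjusted p 0.0190), and WDR75 was lost in 4 of 16 alternatives. WDR43, the remaining UTP-A protein among the 54, did not overlap between the groups and did not pass (log2 fold change -0.15, SE 0.070, edgeR adjusted p 0.0907). RRP9, a protein of the U3 snoRNP, had 77.4, 67.9 and 61.1 CPM in sgCtrl and 47.8, 45.8 and 63.5 CPM in sgN6AMT1. Its sgN6AMT1 replicate 3 reached into the sgCtrl range, so the call (log2 fold change -0.41, SE 0.12, edgeR adjusted p 0.00565) came with overlap, and it was lost in DESeq2 and without sgN6AMT1 replicate 2. NOP14 had the smallest difference, from 147, 144 and 141 CPM to 139, 145 and 142 CPM (log2 fold change -0.02, SE 0.079, edgeR adjusted p 0.894). The helicases DDX10 and DDX52, the NOP14 partner NOC4L, UTP3 and UTP14A did not pass either, with log2 fold changes of -0.17, -0.17, -0.09, -0.13 and -0.10.

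Late small subunit precursors carry 7 of the genes, and they split. TSR1, LTV1 and NOB1 were lower. TSR1, a GTPase-like factor, had 194, 182 and 185 CPM in sgCtrl and 153, 143 and 147 CPM in sgN6AMT1 and fell by 20.9% (log2 fold change -0.34, SE 0.074, edgeR adjusted p 0.000172). LTV1, an adaptor of nuclear export and of the final folding of the particle, had 150.2, 157 and 151 CPM and 126, 126 and 116 CPM (log2 fold change -0.31, SE 0.081, edgeR adjusted p 0.00154). NOB1, the nuclease that makes the final cut in the small subunit rRNA, had 165, 158 and 158 CPM and 123, 139 and 133 CPM (log2 fold change -0.28, SE 0.079, edgeR adjusted p 0.00360), and the highest occupancy per kilobase of the 7 (129.6 ± 3.55 CPM per kb in sgCtrl, SD, n = 3). None of these 3 overlapped between groups, and all 3 calls held in the 16 alternatives. BYSL (bystin), which joins in the nucleus, had the highest log2 fold change of the 7, with 144, 154 and 157 CPM and 157, 166 and 173 CPM. Each sgN6AMT1 library was at least marginally above each sgCtrl library, and the difference did not pass (log2 fold change 0.12, SE 0.076, edgeR adjusted p 0.244). The kinases RIOK1 and RIOK2 had log2 fold changes of 0.09 and 0.03 and RRP12, an export factor, -0.13, with overlapping groups for all 3.

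Large subunit precursors involve 18 of the genes, of which 8 were lower, with a median of -0.16 and 17 negative values, 4 of which (NOP2, PES1, EBNA1BP2 and GNL2) turned positive when scaled by total counts alone. DDX18, a DEAD-box helicase of nucleolar precursors, led with 262, 287 and 271 CPM in sgCtrl and 195, 196 and 199.8 CPM in sgN6AMT1. The sgN6AMT1 libraries agreed closely and lay far below, so DDX18 fell by 28.1% (log2 fold change -0.48, SE 0.066, edgeR adjusted p 5.11e-09). Its relative DDX56 was lower as well (log2 fold change -0.32, SE 0.069, edgeR adjusted p 0.000130), and of the 5 DEAD-box helicases among the 54 genes 3 passed and all were negative. NIP7, a small RNA-binding factor, stood at 124, 141 and 136 CPM and 110.5, 94.2 and 114 CPM (log2 fold change -0.34, SE 0.088, edgeR adjusted p 0.00159), and its call was lost without sgN6AMT1 replicate 2. MDN1 (midasin), the giant ATPase that pulls factors off the particle, had 281, 259 and 207 CPM and 191, 197 and 209.5 CPM. One sgN6AMT1 library was above the lowest sgCtrl library, and MDN1 passed in all 16 alternatives (log2 fold change -0.33, SE 0.072, edgeR adjusted p 0.000228). NLE1, on which midasin pulls, had a log2 fold change of -0.10 and did not pass. The PeBoW complex, which is needed to process large subunit rRNA, was split. BOP1 had 212, 207 and 209 CPM and 163, 157 and 173 CPM, without overlap (log2 fold change -0.35, SE 0.071, edgeR adjusted p 4.59e-05), and WDR12 was also lower (log2 fold change -0.26, SE 0.080, edgeR adjusted p 0.00910). PES1, the remaining protein, had 145, 157 and 154 CPM and 141, 142 and 166 CPM, with overlap (log2 fold change -0.03, SE 0.079, edgeR adjusted p 0.796). Inside each library, the ratio of BOP1 to PES1 counts was 1.38 ± 0.079 in sgCtrl and 1.10 ± 0.058 in sgN6AMT1 (SD, n = 3), a ratio chosen after the values had been seen.

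The calls for NOC2L and GTPBP4 were the weakest of the large subunit factors. NOC2L, which pairs with NOC3L on early particles, was lower (log2 fold change -0.16, adjusted p 0.0202, edgeR) and lost its call in 5 of 16 alternatives. Total counts without factors gave -0.11 (edgeR adjusted p 0.145), and so did the fit without sgN6AMT1 replicate 1 (-0.11, edgeR adjusted p 0.188). GTPBP4, a nucleolar GTPase, was lower (log2 fold change -0.16, adjusted p 0.0411, edgeR) and lost its call in 10 of 16, with -0.11 (edgeR adjusted p 0.202) under total counts. WDR12 was lost in 3 of 16. The GTPases GNL2 and GNL3 (nucleostemin) did not pass, with log2 fold changes of -0.002 and -0.13. MRTO4, which holds the place of a stalk protein, was the most occupied per kilobase of the 15 with a matched CDS (406 ± 27.5 CPM per kb in sgCtrl, SD, n = 3). It stood at 287, 312 and 274 CPM and 258, 269 and 269.8 CPM, without overlap, and did not pass (log2 fold change -0.14, SE 0.063, edgeR adjusted p 0.0967). With length and GC trends removed it was at -0.24 and passed (edgeR adjusted p 0.000188), and it also passed without sgCtrl replicate 3 (-0.18, edgeR adjusted p 0.043). RRS1, which brings in the small rRNA of the large subunit, had the only positive value of the 18, from 67.3, 67.9 and 53.7 CPM to 58.7, 65.7 and 71.1 CPM with overlapping groups (log2 fold change 0.03, SE 0.11, edgeR adjusted p 0.868), and it was negative in 4 of 16 alternatives. The methyltransferase NOP2, EBNA1BP2, NOP16 and NOC3L had log2 fold changes of -0.04, -0.02, -0.16 and -0.17 and did not pass.

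By DESeq2, 22 of the 54 genes passed, 21 lower and NHP2 higher, against 12.3% of its 10780 genes (6.86% lower and 5.43% higher), and all 22 had also passed in edgeR. Of the 28 edgeR calls, 21 held in all 16 alternatives, and none of the 28 changed sign. The remaining 7 were NOP58, GTPBP4, NOC2L, WDR75, WDR12, RRP9 and NIP7. Scaling set the split of calls over all genes: TMM factors gave 1282 lower and 1191 higher (51.8% lower), and total counts without factors gave 976 lower and 1560 higher (38.5% lower). Among the ribosome biogenesis factors, total counts gave 23 lower and 1 higher, against 10.6% lower and 17.0% higher of all genes, and their median lay -0.18 from the median of all genes under both. GENCODE lists pseudogenes named after 12 of the 54 genes, among them 49 for NPM1 and 2 for NHP2, and reads can be shared between a gene and its copies, so single values of these 12 are less certain. Of the 12 genes with such copies 8 were lower, and of the 42 without them 19. Of all genes tested 13.9% were lower, and of the 3128 abundant genes 28.0%. The part of shared reads in these counts was not tested.

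Other genes of the pathway were listed by role. Of 90 further biogenesis genes in the table, 32 (35.6%) were lower and 1, UBTF, higher, with a median of -0.17, where 13.9% of all genes tested and 28.0% of the 3128 abundant genes were lower. Factors of the large subunit stood lowest, with 19 of 40 (47.5%) lower and a median of -0.21. Among these, URB1 (log2 fold change -0.79, SE 0.071, edgeR adjusted p 9.03e-17), RRP15 (log2 fold change -0.77, SE 0.096, edgeR adjusted p 2.08e-10) and DDX51 (log2 fold change -0.74, SE 0.21, edgeR adjusted p 0.00488) had the largest decreases, each larger in value than that of UTP20. Of 38 genes listed as further small subunit factors, 12 (31.6%) were lower, a share near that of the abundant genes, with a median of -0.07. The largest decreases on that list were those of PWP2, a UTP-B protein (log2 fold change -0.61, SE 0.098, edgeR adjusted p 3.44e-07), RRP1B, a paralogue of RRP1 that is known from large subunit precursors (log2 fold change -0.48, SE 0.091, edgeR adjusted p 1.50e-05), and the rRNA acetyltransferase NAT10 (log2 fold change -0.40, SE 0.068, edgeR adjusted p 9.25e-07). TBL3, also of UTP-B, was lower too (-0.29 on the log2 scale, edgeR adjusted p 0.00602), so that 4 of the 6 UTP-B genes listed passed. Of 12 further genes for RNA polymerase I and its factors (median -0.16), 2 passed (16.7%), a smaller share than the 26.9% of all genes tested. The subunit POLR1D was lower (log2 fold change -0.42, SE 0.13, edgeR adjusted p 0.0120) and the ribosomal gene activator UBTF higher (log2 fold change 0.26, SE 0.096, edgeR adjusted p 0.0354). UTP4 and TMA16 were not analysed here.

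**Figure D5:**
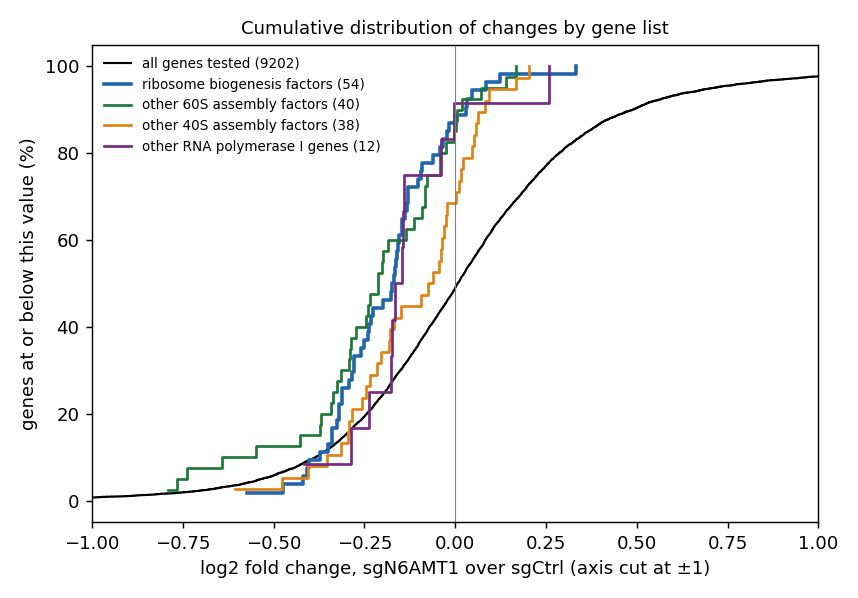
Cumulative share of genes (y axis, %) at or below a log2 fold change of sgN6AMT1 over sgCtrl (x axis, cut at ±1) for all 9202 genes tested, the 54 ribosome biogenesis factors and the 3 lists of other pathway genes. The medians were 0.006 for all genes, -0.17 for the 54 factors, -0.21 for other large subunit (60S), -0.07 for other small subunit (40S) and -0.16 for other RNA polymerase I genes.

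N6AMT1 lies on chromosome 21, where the 83 genes tested had a median log2 fold change of -0.26, with 36 lower and 2 higher. None of the 54 genes lies there, but 4 of the other pathway genes, PWP2, RRP1, RRP1B and URB1, do, and all 4 were lower. Without those 4, 28 of 86 other pathway genes were lower and 1 higher, with a median of -0.15. The part of the chromosome in their values was not tested.

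The 54 genes were long in coding sequence, with a median CDS of 1773 bases for the 48 that had a matched CDS against 1392 bases for 8607 genes tested, and had a GC content of 48.0% against 51.0%. Across genes, which are not independent replicates and share the same libraries, Spearman's rho between CDS length and log2 fold change was -0.16 over the 48 and -0.13 over all. For GC content it was 0.20 and 0.09. With trends on both removed, 28 of the 54 genes were lower and NHP2 higher, where 17.0% of all genes were lower and 11.9% higher. Genes without a matched CDS, FBL, MDN1 and WDR36 among the lower ones, had no trend removed in that fit. The median of all genes was then -0.02, and the median of the 54 lay -0.15 from it, against -0.18 before. Many snoRNAs are cut from introns of host genes, and 7 of the 54 genes (13.0%) held a snoRNA gene on the same strand, against 1.99% of 9139 genes tested with a location. These were DKC1, GNL3, NCL, NOP56, NOP58, TSR1 and WDR43. Of the 7, 5 were lower (median -0.23), and of the 47 others 22 were lower (median -0.17). Of all 182 genes tested that held a snoRNA gene, 69 were lower, with a median of -0.14.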

How the data were processed

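Ribosome profiling of K562 cells gave 3 sgCtrl and 3 sgN6AMT1 libraries, grouped by their titles. The authors deposited 1 table of whole-number footprint counts per transcript, neither normalized nor pooled. Per the study's methods, adapters were trimmed with cutadapt, reads were mapped to GRCh38 with HISAT2, rRNA and tRNA reads were removed, the rest were mapped to canonical transcripts with bowtie2, and P-sites from riboWaltz were summed over each CDS. For their own DESeq2 analysis the authors counted reads by gene annotation, and it is not stated which procedure made the deposited counts. Cycloheximide was present at lysis. No molecular identifiers are described, so the depth covers counting error only. The legends of the study describe independent lentiviral infections as replicates.

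The 55 genes, their roles and the other lists were chosen with earlier results of these data known. Differences in counts were tested in R 4.3.3 with edgeR 4.0.16 (filterByExpr at a minimum of 10 counts, TMM factors, robust quasi-likelihood F test, 2-sided, Benjamini-Hochberg adjustment over all genes tested, threshold 0.05). This tested 9202 genes, and the 10128 removed held 0.465% of counts. CPM are scaled to the TMM-adjusted library size, and the SE was derived from the F statistic. CDS lengths and gene positions came from GENCODE release 44, matched by transcript identifier, with 6 of the 54 genes unmatched for CDS. Chi-square distances between libraries were checked over genes with enough counts. The 16 alternatives were DESeq2 1.42.0, limma-voom (limma 3.58.1), RLE and upper-quartile factors, total counts, no filter, a mean of at least 50 counts, the replicate number as a block, loess fits (span 0.5) that remove trends of GC content and CDS length, thinning to the smallest library, and each library left out. The loess fits removed nothing from genes without a matched CDS. On simulated data with the same relative spread for every gene, the edgeR test recovered 77.2% of the changed genes, with 2.67% of its calls false. Of genes changed 1.3-fold it recovered 44.7%. The changed genes were drawn from far less covered genes as well, whereas the least covered of the 54 had 106 counts in a library. These recovered shares therefore do not describe the 54 genes, and their own share was not simulated. A small change that did not pass may still have been missed. Named in full were genes past the threshold whose log2 value moved by 0.5 or more and, per role group, the genes with the highest and lowest change and the highest CPM per kb.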

Additional observations from a re-analysis of the deposited data

How the results depend on the processing

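Over 16 alternatives, the number of ribosome biogenesis factors past the threshold ran from 22 to 29 (28 in the reported fit). DESeq2 called the fewest genes in all, 1324 of 10780, against 2473 of 9202 in the reported edgeR fit. The most, 2666 of 9202, were called with length and GC trends removed. The median log2 fold change of the 54 genes, -0.17 as reported, was -0.18 in DESeq2, -0.16 with upper-quartile factors, -0.12 with total counts, -0.18 without a filter, -0.15 with a mean of at least 50 counts and -0.18 after thinning, and ran from -0.20 to -0.19 without each library in turn. The cause of these moves was not tested. No pairing by replicate number was seen (correlation of deviations between same-numbered libraries -0.06, 0.02 and 0.02). Whether same-numbered libraries were handled together cannot be told from these values. With the replicate number as a block, 26 of the 54 genes passed, 25 lower and 1 higher, with a median of -0.17, and NOP58 and GTPBP4 lost their calls. Of all genes tested, 26.0% passed in that fit, 13.3% lower and 12.7% higher. Over the 54 genes, N6AMT1 and TRMT112, single values kept their direction and side of the threshold in 828 comparisons with an alternative, lost the call in 34, gained it in 6 and changed sign in 27. The changes of sign came from 8 genes near 0, none past the threshold in either fit. Their log2 values were NOP10 -0.075, RRS1 -0.052 and GNL2 0.0063 with length and GC trends removed, and RRS1 -0.041 and GNL2 0.0026 after thinning. With total counts they were NOP14 0.036, NOP2 0.013, PES1 0.021, EBNA1BP2 0.033 and GNL2 0.053, and with a mean of at least 50 counts NOP14 0.0070, EBNA1BP2 0.0034 and GNL2 0.023. GNL2 was also at 0.011 with upper-quartile factors and at 0.00079 with the replicate block. Without each library in turn, the values ran from -0.0011 to 0.083 for NOP10, -0.0026 to 0.082 for RIOK2, -0.12 to 0.019 for NOP2, -0.11 to 0.0042 for PES1, -0.063 to 0.042 for EBNA1BP2, -0.064 to 0.104 for RRS1 and -0.062 to 0.049 for GNL2. The calls gained were those of TCOF1, POLR1B, WDR43, GNL3 and MRTO4. Library totals of 1821356 to 2969736 counts limit how small a change can pass, and the least covered of the 54 genes had 106 counts in a library.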
